A study of Homo sapiens with 48 samples.

Results

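UPP1 and NT5E are enzymes of nucleoside metabolism, and they were picked because both of their mRNAs rose more after depletion of eIF2Bδ (EIF2B4) than of eIF2Bα (EIF2B1) in total RNA. They are 2 of the 11947 genes in the total RNA table and 2 of the 11145 genes in the table of ribosome-protected fragments (RPFs), the mRNA pieces covered by translating ribosomes. The genes were chosen by their total RNA responses to the knockdowns in these same libraries, so every response of UPP1 and NT5E to a knockdown, and the difference between the knockdowns, is given here as a description without a p-value.

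UPP1 encodes uridine phosphorylase, which splits uridine into uracil and ribose-1-phosphate, so that the sugar can enter central carbon metabolism and the base can be salvaged or degraded. NT5E encodes CD73, an ecto-5′-nucleotidase anchored at the cell surface, which removes the phosphate from extracellular AMP and yields adenosine. Adenosine can then be taken up by nucleoside transporters, be deaminated or phosphorylated, or bind adenosine receptors. eIF2B is the exchange factor that recharges eIF2 with GTP for translation initiation, and phosphorylated eIF2 inhibits it in the integrated stress response.

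The cells were SW480, an established human colorectal adenocarcinoma line with mutant APC. Pools of transduced cells, 3 in all, carried a doxycycline (DOX)-inducible shRNA: non-targeting shCTRL, shEIF2B1 or shEIF2B4. Each was kept without DOX (-DOX, solvent DMSO) or with 1 µg/ml DOX for 5 days (+DOX), once in each of 4 weeks. The 24 lysates gave 24 RPF and 24 total cytoplasmic RNA libraries, with 4 replicates in each of the 6 conditions. Values are regularized log2 (rlog) values as deposited, 1 unit of which is a 2-fold change before shrinkage, and the library depth is unknown. They are not corrected for mRNA length, so levels are compared between conditions and never between the genes. Fewer cells and less RNA per cell cannot be told apart in such bulk lysates.

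The labels were checked on the targeted genes. EIF2B1 total RNA was 8.19 to 8.38 in shEIF2B1 -DOX and 7.10 to 7.68 in shEIF2B1 +DOX, and EIF2B4 total RNA was 6.88 to 7.42 in shEIF2B4 -DOX and 6.47 to 6.68 in shEIF2B4 +DOX. Neither pair of ranges overlapped. EIF2B1 total RNA in shEIF2B1 -DOX lay below that in shCTRL -DOX (8.43 to 8.66) but overlapped shCTRL +DOX (8.10 to 8.44). EIF2B4 total RNA in shEIF2B4 -DOX overlapped that in shCTRL -DOX (7.19 to 7.59), with the lower mean (7.18 against 7.44). Whether the shRNAs acted without DOX was not tested. Below, libraries without a knockdown are all those other than shEIF2B1 +DOX and shEIF2B4 +DOX. Corrected for shCTRL, EIF2B1 stood at -0.67 ± 0.15 (SE) on the log2 scale after shEIF2B1 and EIF2B4 at -0.49 ± 0.14 after shEIF2B4, below 0 in 4 of 4 weeks each. Of 10 colorectal epithelial markers, 6 were listed in total RNA (EPCAM, KRT8, KRT18, KRT19, CDH1 and CDX2), while KRT20, CDH17, VIL1 and LGALS4 were not. None of 6 fibroblast or 3 endothelial markers was listed, and of 5 leukocyte markers only CD68 was, at a mean of 4.96 against a table median of 7.89. Library medians ran slightly lower in the shEIF2B4 pool, at 7.85 to 7.88 in total RNA and 6.84 to 6.97 in RPFs. The other pools stood at 7.87 to 7.92 and 6.98 to 7.12, so the total RNA ranges overlapped. These ranges take -DOX and +DOX libraries together, and their bearing on UPP1 and NT5E was not tested.

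On GRCh38 in GENCODE v29, UPP1 lies on the plus strand of chromosome 7 (48088628 to 48108733) and NT5E on the plus strand of chromosome 6 (85449584 to 85495791). The transcripts that carry the values, ENST00000395564.9 for UPP1 and ENST00000257770.8 for NT5E, have 9 exons each in that release, under an earlier version number. Because the mRNAs moved together, RefSeq promoters on GRCh38.p14 (250 bases before to 50 after a start site) were searched on both strands for 5 motifs: TGATGNAA, the core of the C/EBP-ATF element, the CRE TGACGTCA and the shorter TGACGT within it, the AP-1 element TGANTCA, and the NF-κB element. RefSeq lists 3 promoters for UPP1 and 1 for NT5E. The NF-κB element searched for was GGGRNWYYCC (R is A or G, W is A or T, Y is C or T), which the UPP1 match fits when read on the minus strand. The stretches with a match are shown as read on the plus strand, with the matched letters in capitals:
NT5E, TGACGT, chr6:85449944-85449973, plus strand: ggtcggatcgggTGACGTcgcgaacttgcg
UPP1, AP-1, chr7:48088586-48088615, plus strand: ctcgaagtgaaTGAGTCActtcccctcctc
UPP1, NF-κB, chr7:48088636-48088665, plus strand: cccagcaagcGGGAACTCCCaggatcagga
The NT5E match began 127 bases before a start site that lies 8 bases upstream of the start of the measured transcript. Both UPP1 matches were in 1 promoter, beginning 107 and 58 bases before a start site 533 bases upstream of the measured transcript. The 2 UPP1 promoters whose start sites lie 17 and 28 bases downstream of the measured transcript's start held none of the 5 motifs. Neither gene's promoters held TGATGNAA or the full TGACGTCA, and the genes shared no motif. Among all 35114 promoters, 7.98% held TGACGT, 7.71% the AP-1 element, 5.91% the NF-κB element, 3.62% TGATGNAA and 1.85% TGACGTCA, so that each match shown is of a kind found by letters alone in many promoters.

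The mRNAs differed in build. The UPP1 transcript had a 5′ leader of 380 bases, longer than 84.3% of the leaders of 11820 measured genes, with 1 upstream ATG, and a 3′ UTR of 62 bases, longer than only 4.44% of them. The NT5E transcript had a leader of 49 bases with no upstream ATG, as in 51.2% of genes, and a 3′ UTR of 1774 bases, longer than 73.6% of them. Coding sequences were 930 bases in UPP1 and 1722 bases in NT5E, with 66.8% and 51.4% G or C at the last position of codons against a median of 59.2%. The pair thus differed in leader length, in the presence of an upstream ATG and in codon composition.

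UPP1 mRNA was higher in both knockdowns than elsewhere and stood highest after shEIF2B4. In total RNA, weeks 1 to 4 gave 6.73, 6.99, 7.12 and 6.93 in shCTRL -DOX and 6.61, 6.73, 6.92 and 6.77 in shCTRL +DOX. In the shEIF2B1 pool the values were 6.79, 6.79, 7.01 and 7.06 -DOX and 7.33, 7.68, 7.46 and 7.67 +DOX. In the shEIF2B4 pool they were 6.91, 7.16, 7.15 and 7.15 -DOX and 8.35, 8.22, 8.66 and 8.60 +DOX. The 16 libraries without a knockdown spanned 6.61 to 7.16, all 4 shEIF2B1 +DOX libraries lay above them by at least 0.17, and all 4 shEIF2B4 +DOX libraries lay above those by at least 0.54. The neighbours in the order of means below the knockdowns, shCTRL +DOX (6.76 ± 0.13, SD, n = 4), shEIF2B1 -DOX (6.91 ± 0.14), shCTRL -DOX (6.94 ± 0.16) and shEIF2B4 -DOX (7.09 ± 0.12), each overlapped the next.

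In ribosome occupancy of UPP1 the knockdown conditions again ranked highest, with shEIF2B4 +DOX above shEIF2B1 +DOX, while the order of the overlapping conditions below them differed from that in total RNA. RPF values in weeks 1 to 4 were 6.84, 6.79, 7.46 and 6.95 in shCTRL -DOX and 6.94, 6.44, 7.13 and 6.89 in shCTRL +DOX. They were 6.78, 6.87, 7.09 and 6.94 in shEIF2B1 -DOX and 7.79, 7.57, 7.88 and 7.55 in shEIF2B1 +DOX. They were 6.98, 6.79, 7.04 and 6.84 in shEIF2B4 -DOX and 8.67, 8.23, 8.87 and 8.38 in shEIF2B4 +DOX. Again both knockdown groups stood apart, although the lowest shEIF2B1 +DOX library was only 0.083 above the highest library without a knockdown, shCTRL -DOX of week 3. The lowest shEIF2B4 +DOX library was 0.35 above the highest shEIF2B1 +DOX library.

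For NT5E too, shEIF2B4 +DOX ranked first and shEIF2B1 +DOX next. In total RNA, weeks 1 to 4 gave 7.16, 6.90, 7.18 and 7.27 in shCTRL -DOX and 7.12, 7.10, 7.42 and 7.45 in shCTRL +DOX. The shEIF2B1 pool gave 7.17, 6.91, 7.24 and 7.19 -DOX and 8.07, 7.82, 7.87 and 8.05 +DOX. The shEIF2B4 pool gave 7.37, 7.05, 7.06 and 7.35 -DOX and 8.70, 8.46, 8.82 and 8.74 +DOX. The 16 libraries without a knockdown spanned 6.90 to 7.45 and overlapped throughout. The lowest shEIF2B1 +DOX library was 0.36 above them, and the lowest shEIF2B4 +DOX library was 0.39 above the highest shEIF2B1 +DOX library.

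NT5E RPFs were 5.52, 5.48, 6.003 and 5.62 in shCTRL -DOX and 5.31, 5.38, 6.16 and 5.77 in shCTRL +DOX, weeks 1 to 4. They were 5.57, 5.64, 5.72 and 5.69 in shEIF2B1 -DOX and 6.43, 6.51, 6.44 and 6.78 in shEIF2B1 +DOX. They were 5.92, 5.60, 5.57 and 5.73 in shEIF2B4 -DOX and 7.06, 6.92, 7.28 and 7.15 in shEIF2B4 +DOX. The gap between the knockdowns was the narrowest of the 4 comparisons here, 0.14 between the lowest shEIF2B4 +DOX and the highest shEIF2B1 +DOX library. The spread among shCTRL +DOX libraries (SD 0.39) was larger than in any other condition and came with a high week 3.

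**Figure D1:**
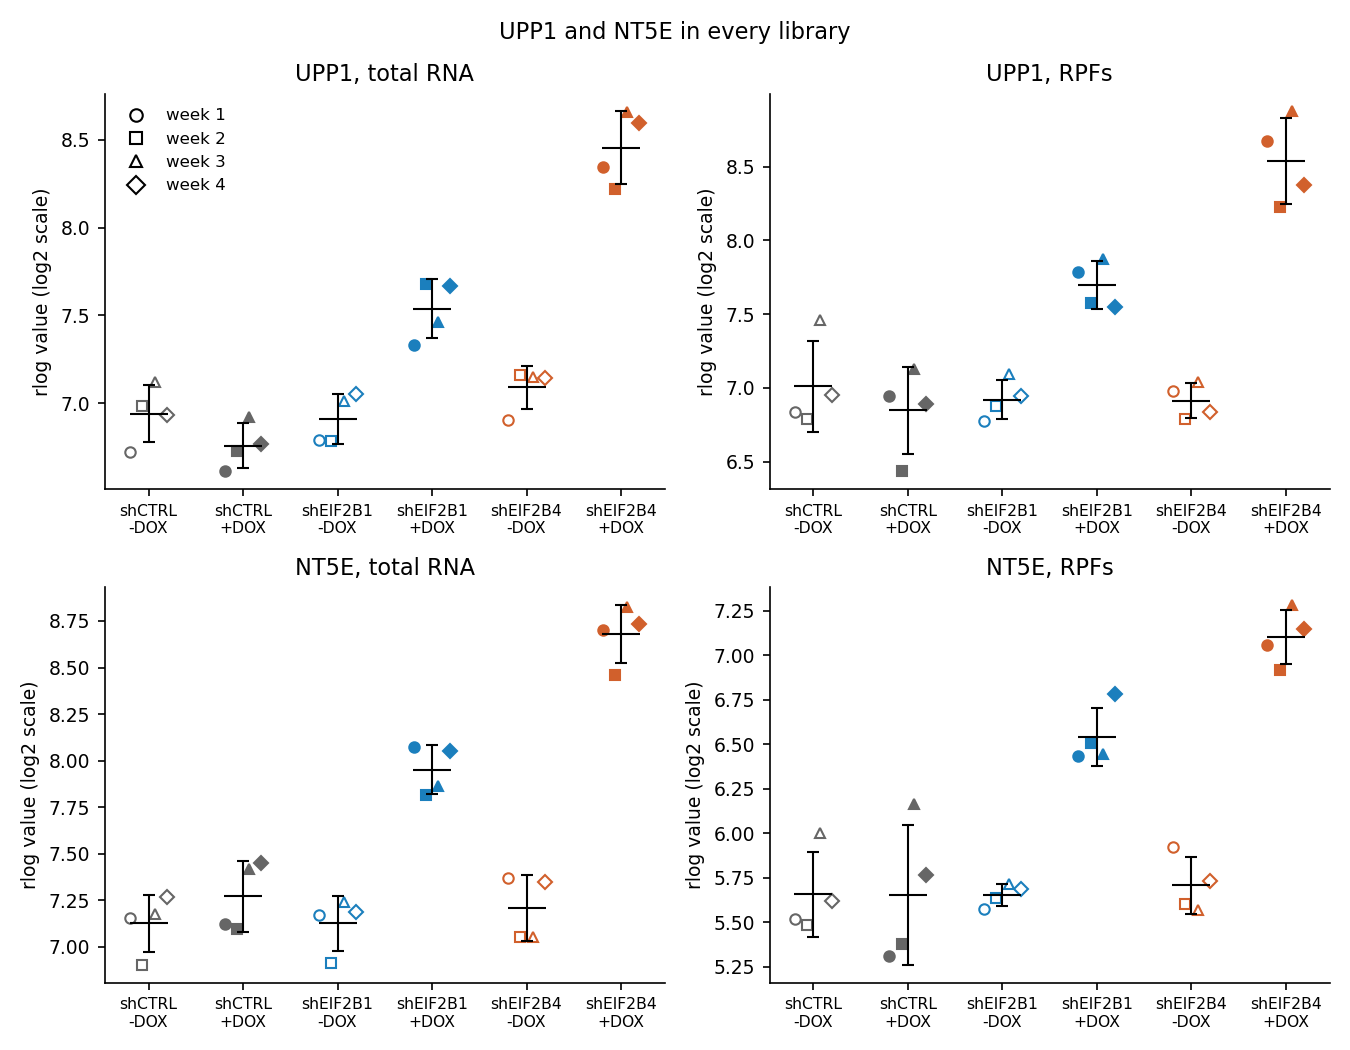
Deposited rlog values (log2 scale, vertical axis) of UPP1 (top) and NT5E (bottom) in total RNA (left) and RPFs (right) for the 6 conditions, with open symbols -DOX, filled symbols +DOX, marker shape for the week, and a line with whiskers for the mean and SD of 4 libraries. In all 4 panels the shEIF2B1 +DOX libraries lie above all libraries without a knockdown and the shEIF2B4 +DOX libraries lie above both.

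The responses, meaning the change from -DOX to +DOX minus that of shCTRL, were above 0 in 4 of 4 weeks for each gene, knockdown and measure of abundance. In total RNA, the UPP1 response was 0.81 (SE 0.12, 95% interval 0.56 to 1.05, 1.75-fold) to shEIF2B1 and 1.55 (SE 0.11, 1.32 to 1.78, 2.92-fold) to shEIF2B4. The NT5E response was 0.68 (SE 0.11, 0.44 to 0.91, 1.60-fold) and 1.33 (SE 0.12, 1.08 to 1.57, 2.51-fold). Ranked from the highest among 11947 genes, UPP1 was 63rd after shEIF2B1 and 11th after shEIF2B4, and NT5E was 94th and 16th. As background, limma called 3.47% of genes after shEIF2B1 and 5.4% after shEIF2B4 at an adjusted p under 0.1.

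In RPFs, the UPP1 response was 0.93 (SE 0.15, 95% interval 0.61 to 1.25, 1.91-fold) to shEIF2B1 and 1.78 (SE 0.16, 1.45 to 2.12, 3.44-fold) to shEIF2B4. The NT5E response was 0.89 (SE 0.18, 0.51 to 1.27, 1.85-fold) and 1.40 (SE 0.20, 0.98 to 1.82, 2.63-fold). Among 11145 genes these ranked 100th and 14th for UPP1 and 112th and 32nd for NT5E, against a background of 27.3% of genes called for shEIF2B1 and 2.75% for shEIF2B4. RPFs and total RNA thus moved in the same direction for each gene and knockdown.

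The excess of shEIF2B4 over shEIF2B1 was 0.74 in UPP1 total RNA (SE 0.11, 95% interval 0.50 to 0.98, 1.67-fold) and 0.85 in UPP1 RPFs (SE 0.15, 0.54 to 1.16, 1.80-fold). In NT5E it was 0.65 in total RNA (SE 0.11, 0.42 to 0.88, 1.57-fold) and 0.51 in RPFs (SE 0.19, 0.12 to 0.90, 1.42-fold). Each was above 0 in 4 of 4 weeks, and over all genes limma called such a difference in 0.1% of total RNA genes and 0.00897% of RPF genes. UPP1 ranked 5th from the top in both measures, and NT5E ranked 12th in total RNA and 108th in RPFs. The weekly sizes were uneven. The UPP1 total RNA difference was 0.17 in week 2 against 0.84 to 1.06 in the other weeks. In week 2 the shEIF2B1 response was at its largest (1.15) and the shEIF2B4 response at its smallest (1.32, against 1.55 to 1.70). The NT5E difference was 1.15 in week 3 and 0.43 to 0.52 in the others, and the shEIF2B1 response was smallest in week 3 (0.38). Taking the response to shEIF2B4 over that to shEIF2B1 on the log2 scale, the ratio was 1.91 in both UPP1 measures, 1.96 in NT5E total RNA and 1.57 in NT5E RPFs.

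Translation efficiency (log2 TE, RPFs minus total RNA of one lysate) was in overlapping ranges in all conditions for both genes. UPP1 log2 TE was between -0.37 and 0.45 over all libraries, with means of 0.069 ± 0.22 (SD, n = 4) in shCTRL -DOX, 0.091 ± 0.27 in shCTRL +DOX, 0.011 ± 0.094 in shEIF2B1 -DOX, 0.16 ± 0.32 in shEIF2B1 +DOX, -0.18 ± 0.20 in shEIF2B4 -DOX and 0.081 ± 0.24 in shEIF2B4 +DOX. NT5E log2 TE was between -1.81 and -1.18, with means from -1.62 ± 0.25 in shCTRL +DOX to -1.41 ± 0.17 in shEIF2B1 +DOX. Within 5 of the 6 conditions, UPP1 log2 TE of weeks 1 and 3 lay above that of weeks 2 and 4, while this held in 0 of 6 conditions for NT5E. Weeks 1 and 3 were picked out after the values were seen. Such a split of the weeks is not particular to UPP1. In shCTRL -DOX, RPFs of the nucleoside transporter SLC29A3 were 7.40, 6.83, 7.51 and 6.79 in weeks 1 to 4. Those of GMPS, GMP synthetase, ran the other way, at 8.95, 9.67, 8.92 and 9.77.

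The log2 TE responses corrected for shCTRL had intervals that included 0. For UPP1 they were 0.13 (95% interval -0.21 to 0.46) after shEIF2B1 and 0.24 (-0.090 to 0.56) after shEIF2B4, with a difference of 0.11 (-0.22 to 0.44). For NT5E they were 0.21 (-0.13 to 0.56), 0.070 (-0.27 to 0.41) and -0.14 (-0.48 to 0.19). On the rlog scale, the upper bounds after shEIF2B4 correspond to a 1.48-fold higher TE for UPP1 and a 1.33-fold higher TE for NT5E. RPFs and total RNA were regularized separately, so these values do not bound the fold change in TE before shrinkage. By week, the NT5E response to shEIF2B1 was above 0 in 4 of 4 weeks (0.13 to 0.27) and the NT5E difference below 0 in 4 of 4 weeks (-0.20 to -0.056). Within the shEIF2B4 pool alone, before the correction for shCTRL, UPP1 log2 TE was higher +DOX than -DOX in 4 of 4 weeks, by 0.26 (95% interval 0.00078 to 0.52).

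**Figure D2:**
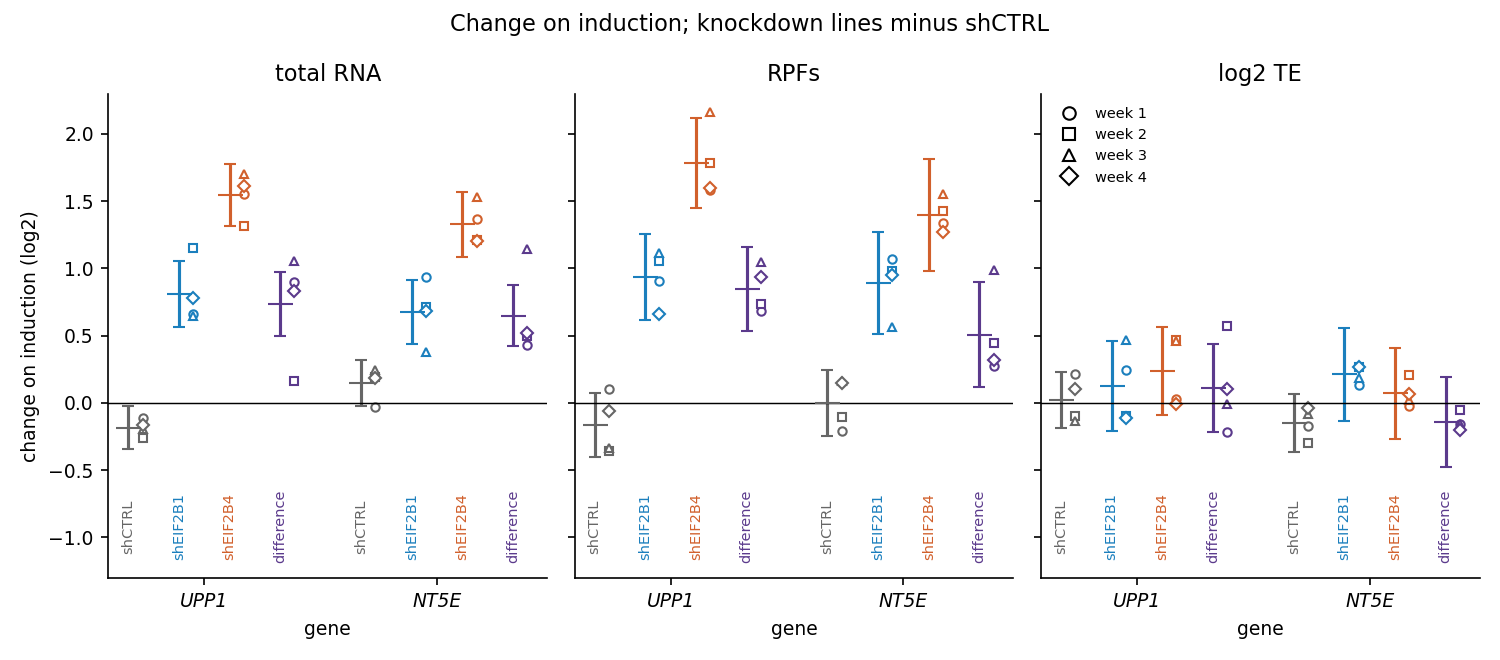
Change on induction on the log2 scale for shCTRL itself (grey), for each knockdown minus shCTRL (blue and orange) and for shEIF2B4 minus shEIF2B1 ("difference", purple), with the estimate and its 95% interval and, beside it, the 4 weekly values by marker shape. All total RNA and RPF responses and differences of the knockdowns lie above 0, and all log2 TE intervals of the knockdowns and differences cross 0.

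DOX with the non-targeting shRNA was the remaining contrast, which the choice of the genes touched only as the correction. UPP1 total RNA was lower in +DOX than in -DOX in 4 of 4 weeks, by 0.18 on average (estimate -0.18, SE 0.075), and this did not pass over all genes (limma adjusted p = 0.202). NT5E total RNA was 0.15 higher (SE 0.078, limma adjusted p = 0.316), above 0 in 3 of 4 weeks. In RPFs the changes were -0.16 (SE 0.11, limma adjusted p = 0.393) for UPP1 and -0.0013 (SE 0.11, limma adjusted p = 0.997) for NT5E. Neither gene was called, where 4.44% of total RNA genes and 9.85% of RPF genes were. The small negative UPP1 value enters the corrected responses above: on its own, the shEIF2B4 pool changed by 1.36 in UPP1 total RNA and the shEIF2B1 pool by 0.63.

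UPP1 and NT5E were then compared over the libraries. After each week's mean was removed, Pearson's r between them was 0.956 over 24 total RNA libraries (Spearman's rho 0.666) and 0.959 over 24 RPF libraries (rho 0.824). These r describe libraries that fall into 3 clusters, namely those without a knockdown, shEIF2B1 +DOX and shEIF2B4 +DOX. Within the 16 libraries without a knockdown, r was -0.175 in total RNA and 0.439 in RPFs. Since both genes were chosen for their rise in the knockdowns, the r over 24 libraries restates that choice in part and supports nothing further.

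**Figure D3:**
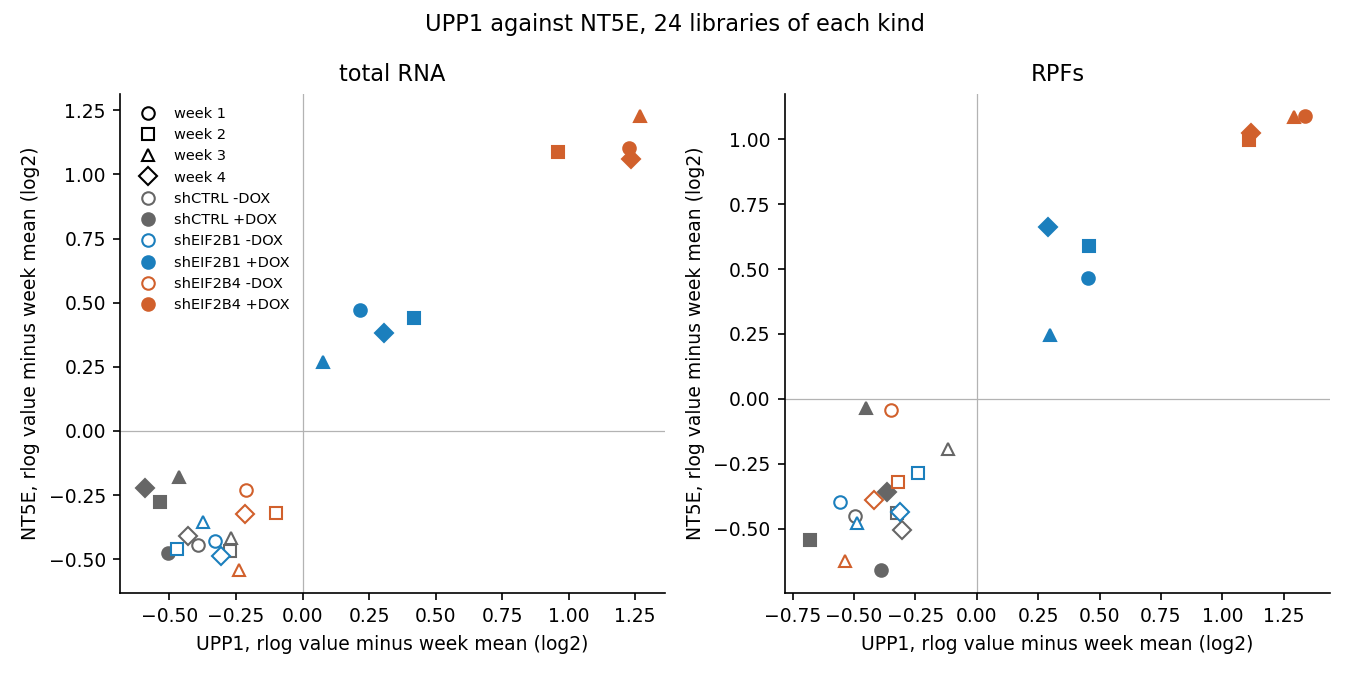
Each point is 1 of 24 libraries, with UPP1 on the horizontal and NT5E on the vertical axis (rlog value minus the mean of the 6 libraries of its week, log2 scale), for total RNA (left) and RPFs (right), and with colours and symbols as in the legend. The 4 shEIF2B4 +DOX libraries lie top right, the 4 shEIF2B1 +DOX libraries between, and the 16 others bottom left.

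By the same measure, the genes most like UPP1 in total RNA were AREG, the EGFR ligand amphiregulin (r = 0.957), NT5E, CLDN7, a tight junction claudin (0.941), FERMT1, an integrin-binding kindlin (0.937), and NTSR1, a neurotensin receptor (0.931). Those most like NT5E were the cytokine gene TSLP and LYPD6B (0.965 each), MOCOS, a molybdenum cofactor sulfurase (0.965), ESRP1, an epithelial splicing regulator (0.963), and CLDN7 (0.961). UPP1 ranked 11th of 11946 for NT5E. In RPFs each of the pair was the other's closest gene of 11144. Next to UPP1 came PPP1R15A, which encodes the eIF2α phosphatase subunit GADD34 (0.952), MOCOS (0.937), NOS3, a nitric oxide synthase (0.925), and MISP, a spindle positioning protein (0.916). Next to NT5E came DDIT3, which encodes the stress factor CHOP (0.949), LCN2, an iron-siderophore binding lipocalin (0.944), MOCOS (0.936) and SLC26A4, an anion exchanger (0.935). All these r are over 24 libraries that share the same weeks and clusters, and are descriptions. CLDN7 in total RNA and MOCOS in RPFs were on both lists.

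In total RNA, genes of nucleoside and nucleotide metabolism, with UPP1 and NT5E left out as untested, were called no more often than genes in general. Of 91 such genes in 10 groups, 68 were listed in total RNA and 67 in RPFs. UPP2, the paralog of UPP1, was in neither table. In total RNA, 2 of 68 passed limma's test after shEIF2B1: RBKS, the ribokinase, rose by 0.31 (SE 0.087, limma adjusted p = 0.0774), and GDA, guanine deaminase, fell by 0.45 on the log2 scale (SE 0.11, limma adjusted p = 0.0443). This is 2.94% of the list beside the background of 3.47% (2.34% higher and 1.13% lower). Neither was called without week 1 or without week 4, and GDA also not without week 2. RBKS was also not called without week 3 or when limma was fitted with no mean-variance trend. RBKS total RNA was low, with means of 3.93 -DOX and 4.21 +DOX in the shEIF2B1 pool against a first quartile of gene means of 6.35. With no shCTRL correction, GDA changed by -0.16 in the shEIF2B1 pool and was not called (limma adjusted p = 0.186). After shEIF2B4, limma called 0 of 68, with 1 higher and 6 lower at an unadjusted p under 0.05, beside a background of 5.4%. For the difference between the knockdowns it called 0 of 68, with 5 higher and 1 lower at an unadjusted p under 0.05. The estimates ran from -0.49 (RRM2) to 0.31 (RBKS) after shEIF2B1 and from -0.33 (PFAS) to 0.28 (DCK) after shEIF2B4. The UPP1 and NT5E responses lay above both ranges, which in part restates that the pair was chosen by its total RNA responses. The list medians, -0.052 and -0.027, were near those of all genes (-0.0038 and 0.0018).

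In RPFs after shEIF2B1, 8 of 67 list genes rose and 14 fell, 32.8% of the list where 27.3% of all genes were called (12% higher and 15.3% lower). The list median was -0.067 and that of all genes -0.011. These calls rest on the week block, since 0 of the 22 were made without it. After shEIF2B4, 1 of 67 was called, CMPK1, with 3 higher and 5 lower at an unadjusted p under 0.05, and the background was 2.75%. For the difference, 0 of 67 were called and 1 was higher at an unadjusted p under 0.05.

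Among pyrimidine salvage and catabolic enzymes, the group of UPP1, 2 of 12 rose in RPFs after shEIF2B1 and 1 fell, 25% of the group beside the background of 27.3%, so the share called is no result about the group. TYMP, thymidine phosphorylase, which carries out the matching cleavage of thymidine, rose by 0.56 (SE 0.19, limma adjusted p = 0.0473), and this call was lost without week 1, 3 or 4. TYMP was among the lowest 25% of genes in RPFs and was not listed in total RNA. Its RPFs in the shEIF2B1 pool overlapped, at 3.51 to 4.02 -DOX and 3.71 to 4.87 +DOX. With no shCTRL correction the change in that pool was 0.33. CMPK1, the UMP/CMP kinase, fell after both knockdowns, with estimates of -0.64 (SE 0.14, limma adjusted p = 0.00511) after shEIF2B1 and -0.83 (SE 0.19, limma adjusted p = 0.0303) after shEIF2B4. The second call was lost without week 2, 3 or 4. The uridine-cytidine kinases UCK1 and UCK2, which rebuild UMP from uridine, gave total RNA responses of 0.19 and -0.12 to shEIF2B1 and of 0.11 and -0.17 to shEIF2B4, none of which passed. Of the 6 genes of pyrimidine synthesis, 1 fell and 0 rose in RPFs after shEIF2B1 (16.7% beside 27.3%).

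The group of ribose phosphate enzymes had 1 of 11 higher and 2 lower in RPFs after shEIF2B1, which equals the background share of 27.3%. The 2 lower were PGM2 and PRPS1, and neither was called without week 1, 3 or 4. The 1 higher was RBKS, by 0.65 (SE 0.17, limma adjusted p = 0.0151). Its RPF values in the shEIF2B1 pool were 4.65, 4.65, 4.32 and 4.59 -DOX and 5.24, 5.53, 5.63 and 5.08 +DOX, which do not overlap. After shEIF2B4 the RBKS response was 0.31 (SE 0.19, limma adjusted p = 0.437), above 0 in 4 of 4 weeks.

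Around NT5E, the ectonucleotidases, several of which supply AMP at the cell surface, were few: 3 of 12 were listed in each table, and 2 of 3 rose in RPFs after shEIF2B1, where 12% of all genes rose; 3 genes are too few to read as a group. ENTPD8, an apyrase-type ectonucleoside triphosphate diphosphohydrolase, rose by 0.94 (SE 0.31, limma adjusted p = 0.0427), and its RPFs in the shEIF2B1 pool were 6.81, 5.85, 6.21 and 5.76 -DOX and 8.03, 7.62, 7.84 and 6.51 +DOX. Those ranges overlap through week 4, and the call was lost without week 1 or 3. ENTPD8 total RNA responded by 0.095 (SE 0.12, limma adjusted p = 0.757). Its total RNA was low, with means of 3.79 -DOX and 4.05 +DOX in the shEIF2B1 pool against a first quartile of gene means of 6.35. Regularization shrinks differences most at such levels, so the small total RNA response cannot be read as no change. ENTPD2, of the same family, rose by 0.46 in RPFs (SE 0.18, limma adjusted p = 0.0819) and lost its call without week 1 or 4. After shEIF2B4 the RPF responses of ENTPD8 and ENTPD2 were 0.80 and 0.46, with limma adjusted p = 0.231 and 0.363.

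Of the intracellular 5′-nucleotidases, which work on nucleotides inside the cell, 2 of 5 fell and 0 rose in RPFs after shEIF2B1, where 15.3% of all genes fell. These 5 are too few to read as a group. NT5C3A, which prefers pyrimidine nucleotides, stood at -0.64 (SE 0.16, limma adjusted p = 0.00999), and NT5C2, which prefers IMP and GMP, at -0.47 (SE 0.14, limma adjusted p = 0.0214), the latter not called without week 4 or with all 24 libraries in 1 fit. In total RNA their responses were 0.11 and 0.030 and did not pass. Of 4 adenosine receptors, 2 were listed and neither was called, too few to set beside the background shares. Of the nucleoside transporters, 1 of 4 (25%) rose in RPFs after shEIF2B1, where 12% of all genes rose, and 4 are too few to read as a group. It was SLC29A3, a lysosomal and mitochondrial carrier (0.60, SE 0.15, limma adjusted p = 0.00994). The plasma membrane carriers SLC29A1 and SLC29A2 had RPF responses of 0.11 and 0.0064 to shEIF2B1 and of -0.063 and -0.057 to shEIF2B4, and did not pass. UCK1, UCK2, SLC29A1, SLC29A2 and GDA are named for their role or their call, with values known.

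Of the 10 enzymes of adenosine and purine nucleosides, 1 rose and 2 fell in RPFs after shEIF2B1 (30% called), and of the 11 purine synthesis genes 1 rose and 4 fell (45.5% called), beside 27.3% of all genes. GMPS, GMP synthetase, stood at -0.80 (SE 0.15, limma adjusted p = 0.00164), with RPFs of 9.45, 10.52, 9.36 and 10.23 in shEIF2B1 -DOX and 8.75, 9.52, 8.95 and 9.58 +DOX. These overlap between weeks, while within each week the +DOX library was lower. ADSS2, adenylosuccinate synthase, stood at -0.61 and PPAT, the first enzyme of purine synthesis, at -0.51 (limma adjusted p = 0.0175 and 0.028), the latter not called without week 1 or 4. RRM1, the large subunit of ribonucleotide reductase, stood at -0.84 (SE 0.18, limma adjusted p = 0.00415), and 2 of the 3 reductase genes fell, where 15.3% of all genes did. These 3 are too few to read as a group. RRM1 total RNA was -0.32 (SE 0.13, limma adjusted p = 0.237), below 0 in 4 of 4 weeks.

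**Figure D4:**
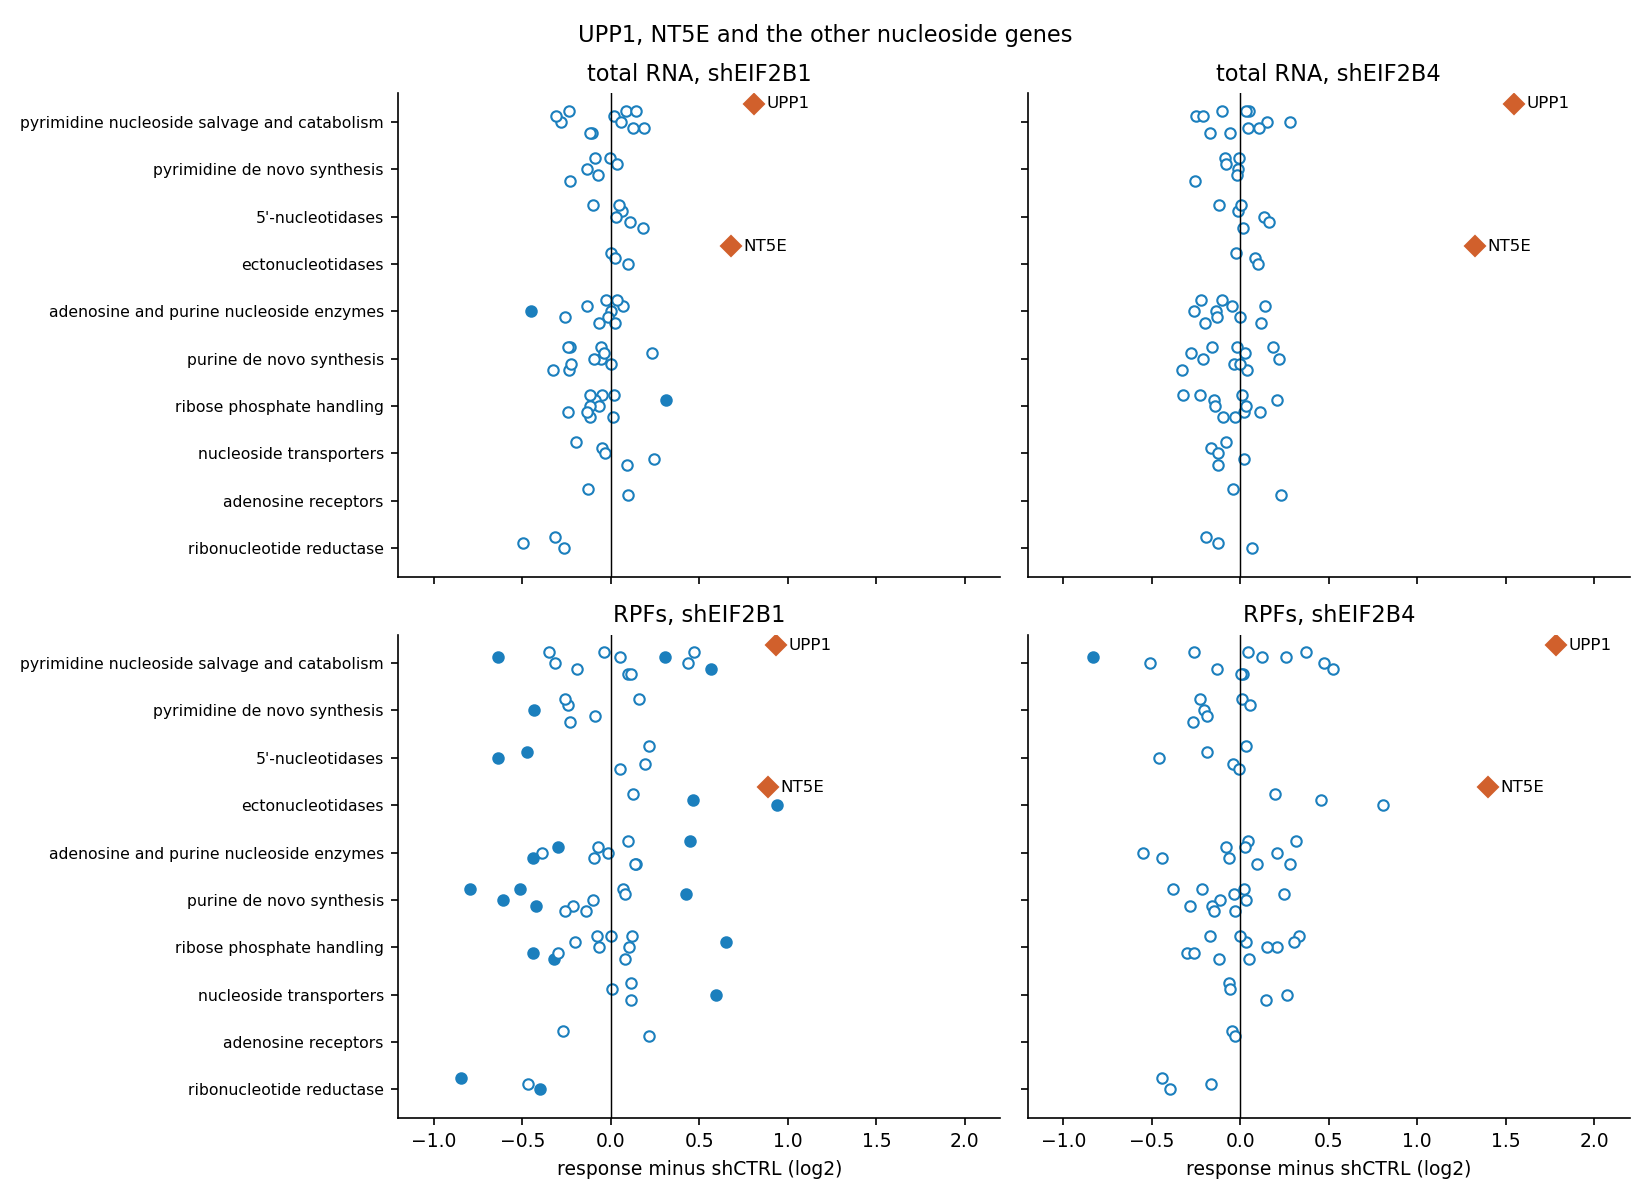
Response minus shCTRL (log2, horizontal axis) of the nucleoside and nucleotide genes by group, in total RNA (top) and RPFs (bottom) after shEIF2B1 (left) and shEIF2B4 (right), with filled circles for genes called by limma at an adjusted p under 0.1, open circles for the rest, and diamonds for UPP1 and NT5E, which were not tested. After shEIF2B4 both diamonds lie to the right of every circle in both measures, and in RPFs after shEIF2B1 ENTPD8 (0.94) lies beside them. UPP1 and NT5E were chosen by their responses to the knockdowns, so the place of the diamonds follows in part from that choice.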

How the data were processed

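RPF and total cytoplasmic RNA libraries of 24 SW480 lysates were used, with groups, weeks and doses taken from the labels, and none was left out. The deposited values are log2 values, regularized by the authors with DESeq2 separately for RPFs and total RNA. Upstream, the authors used cutadapt 1.18, SAMtools 1.9 and R 4.3.1 per the labels, and, per their methods, aligned reads with bowtie2 to GENCODE v38 protein-coding transcripts, quantified total RNA with RSEM, counted RPFs on the CDS and retained 1 transcript per gene, the one most expressed. Replicate 3 joins 2 sequencing runs. No counts are in the tables used here, so depth and counting error are unknown and no count test was run. Regularization shrinks differences, most for genes with few reads.

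The models were limma 3.58.1 fits (lmFit, eBayes with trend, R 4.3.3) on replicate, shRNA, DOX and shRNA by DOX, over the 16 libraries of a knockdown and shCTRL, the difference between knockdowns over 24 libraries, and the shCTRL change over 8. P-values are two-sided, Benjamini-Hochberg adjusted over all 11947 or 11145 genes and called under 0.1. The scripts were tested on simulated data. Per the labels and methods, replicates are separate weeks, so numbers pair the samples: 37 of 60 same-number pairs of libraries in total RNA and 52 of 60 in RPFs had a correlation over 0.1 after condition means were removed. No cultures beyond these weeks are described. The p-values set a change against the variation left after condition and week means, pooled over the conditions of a fit and moderated across genes. SEs and 95% intervals rest on the same pooled spread and need not match the spread of the 4 weekly values of a change. In UPP1 total RNA that weekly SD was 0.39 for the difference and 0.16 for the response to shEIF2B4, while both SEs were 0.11. Shifts shared by all libraries of a week in a fit are removed by the block.

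The members and lists were chosen with earlier results of these data known. Named are UPP1 and NT5E, EIF2B1 and EIF2B4, the nucleoside genes called in a knockdown comparison (values for the 12 largest), and the 5 genes of highest r with each member. The alternatives were no block, no trend, all 24 libraries in 1 fit, no shCTRL correction, median centring, leaving out the lowest 25% of genes, a threshold of 0.05 and leaving out each week. Transcript lengths and positions come from GENCODE v29, matched by identifier without version for 96.4% of genes, and promoters from RefSeq. Protein sequences were not used here.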

Additional observations from a re-analysis of the deposited data

Results flagged for a closer look

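Of 36 groups of 4 values of UPP1 and NT5E (6 conditions in total RNA, RPFs and log2 TE), 1 held a library that stood far from the other 3. It was UPP1 total RNA in shEIF2B4 -DOX, where week 1 was at 6.91 against 7.15 to 7.16 in weeks 2 to 4. About 1 group in 20 is marked this way by chance. Without week 1 the UPP1 total RNA response to shEIF2B4 was 1.54 on the log2 scale, against 1.55 with it.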

How the results depend on the processing

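The fit has the replicate (week) as a block. Without the block the estimates of the responses of UPP1 and NT5E were the same values, and of the nucleoside genes called in RPFs the count went from 22 to 0 after shEIF2B1 and from 1 to 0 after shEIF2B4, while it did not move by over 1.5 times in total RNA. Leaving out 1 week each gave 9 to 24 calls in RPFs after shEIF2B1 (9 without week 1, 10 without week 4, 12 without week 3), 0 to 7 in RPFs after shEIF2B4 (7 without week 1), 0 to 4 in total RNA after shEIF2B1 (4 without week 2) and 0 to 1 in total RNA after shEIF2B4 (1 without week 3). With no shCTRL correction, 42 genes in RPFs and 24 in total RNA were called after shEIF2B1, and 20 and 19 after shEIF2B4. With all 24 libraries in 1 fit they were 12 and 2 in RPFs. At an adjusted p under 0.05 there were 13 in RPFs and 1 in total RNA after shEIF2B1, and without the trend, or without the lowest 25% of genes, 1 in total RNA after shEIF2B1. For the difference between the knockdowns the count was 0 in both measures under all 9 alternatives.

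Of the UPP1 and NT5E responses, 129 of 132 values under alternatives moved by less than the spread between weeks. The exceptions were all without the shCTRL correction: the UPP1 total RNA response to shEIF2B4 (1.36), and the NT5E log2 TE responses to shEIF2B1 (0.065) and shEIF2B4 (-0.077). Most of the 132 could not come out otherwise. Dropping the block leaves the estimates as they are, and leaving out 1 week cannot move a mean by as much as that spread. The count is therefore no measure of stability. Leaving out 1 week each, the difference between the knockdowns ran from 0.63 to 0.93 in UPP1 total RNA, 0.78 to 0.91 in UPP1 RPFs, 0.48 to 0.72 in NT5E total RNA and 0.35 to 0.58 in NT5E RPFs. In UPP1 log2 TE the difference was -0.041 without week 2 (0.11 with all weeks), and the response to shEIF2B1 was 0.011 without week 3 (0.13 with all weeks). The NT5E RPF change in shCTRL, near 0, turned to 0.067 without week 1 and 0.033 without week 2, and over all alternatives ran from -0.055 to 0.067 (limma adjusted p from 0.736 to 1). Causes of these shifts were not tested.

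Counts over all genes varied more: 111 to 4104 (414 as reported) and 217 to 4112 (645) in total RNA, and 50 to 5507 (3038) and 36 to 2655 (307) in RPFs, after shEIF2B1 and shEIF2B4, 0 to 24 (12) and 0 to 2 (1) for the difference in total RNA and RPFs, and 3 to 2452 (531) and 0 to 3526 (1098) for shCTRL. The unknown depth limits what can be said of genes listed low.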
